A study of Homo sapiens with 6 samples.

Results

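The small leucine-rich proteoglycans are secreted matrix proteins built around a row of leucine-rich repeats, and 10 genes of this family were followed here: BGN, DCN, LUM, FMOD, PRELP, OGN, ASPN, OMD, ECM2 and PODN. Each was represented by 1 probe set, so that the family took 10 of the 21448 probe sets of the array, 17709 of which carried a gene symbol in the platform's annotation. The family was taken up because BGN was already known to be among the genes with the smallest p-values in this very comparison. The differences between conditions are therefore given as a description, and no test of them is used as support.

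The samples were 6 cultures of HS578T, an established human breast carcinoma line. In 3 of them (control) the cells carried the expression vector pcDNA 3 alone, and in the other 3 (EP300) they carried pcDNA 3 with the EP300 cDNA, the gene of an acetyltransferase that modifies histones and other proteins and helps transcription factors activate their targets. All 6 cultures had been stably transfected, kept under G418 and grown in low-glucose medium with fetal calf serum and insulin, and the transfectants were pools of at least 200 clones. The labels number the cultures from 1 to 3 in each condition. Whether they trace back to separate transfections is not given, so the spread between them may not include a spread between transfections. The level of EP300 itself was not analysed here. In such bulk RNA, fewer cells (or clones) that express a gene and less of its RNA per cell cannot be told apart.

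These proteins bind collagen fibrils and set their diameter and spacing, and several of them carry chondroitin, dermatan or keratan sulfate chains on a protein core. Biglycan (BGN) and decorin (DCN) also bind TGF-beta, and biglycan released from the matrix is a ligand of the receptors TLR2 and TLR4. In breast tissue they are mainly known as products of stromal fibroblasts, and lines of mesenchymal appearance can make them as well.

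The promoter windows of 3 members are shown because they lie toward the ends of the range of base composition among members with a window. The choice of the genes did not use base composition. RefSeq windows (GRCh38.p14) of 250 bases before to 50 bases after the annotated start were found for 7 of the 10 members (ASPN, BGN, ECM2, FMOD, OGN with 2 starts, PODN and PRELP). Capitals mark matches, on either strand, to the 6 motifs searched: the GC box GGGCGG, the TATA motif TATAAA, the AP-1 motif TGACTCA, the SMAD-type motif CAGAC, the CCAAT box (CCAAT) and the E-box CACGTG. The BGN window lies at chrX:153494730-153495029 (plus strand), the PODN window at chr1:53061963-53062262 (plus strand) and the ASPN window at chr9:92482457-92482756 (minus strand), each covering the annotated start of transcription.
BGN: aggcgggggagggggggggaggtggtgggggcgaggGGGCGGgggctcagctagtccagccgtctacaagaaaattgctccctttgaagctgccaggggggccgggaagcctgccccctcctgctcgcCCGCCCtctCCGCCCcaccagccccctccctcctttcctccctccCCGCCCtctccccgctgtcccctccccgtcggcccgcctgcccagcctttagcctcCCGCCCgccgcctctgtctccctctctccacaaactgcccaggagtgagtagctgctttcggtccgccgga
PODN: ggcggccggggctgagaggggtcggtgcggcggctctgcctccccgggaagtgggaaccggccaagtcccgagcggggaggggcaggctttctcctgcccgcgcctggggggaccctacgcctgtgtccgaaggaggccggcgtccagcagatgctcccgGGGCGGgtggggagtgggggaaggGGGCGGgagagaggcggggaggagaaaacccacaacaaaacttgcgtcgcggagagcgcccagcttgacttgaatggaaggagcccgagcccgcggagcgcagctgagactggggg
ASPN: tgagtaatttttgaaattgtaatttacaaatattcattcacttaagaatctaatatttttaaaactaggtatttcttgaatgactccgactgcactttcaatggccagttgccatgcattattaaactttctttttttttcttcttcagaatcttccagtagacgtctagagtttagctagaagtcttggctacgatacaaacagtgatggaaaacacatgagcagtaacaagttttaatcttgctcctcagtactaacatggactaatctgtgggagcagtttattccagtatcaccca
The BGN and PODN windows each held 71.7% G and C, more than in 83.4% of the 35116 windows in the table, whose median was 58.7%. The BGN window had 5 matches to GGGCGG (1 on the plus strand and 4 on the minus strand) and the PODN window 2, and neither had a match to the other 5 motifs. A match to GGGCGG was present in 45.0% of all windows, so its presence in these is common. The ASPN window held 34.0% G and C and had 0 matches to any of the 6 motifs. The windows of ECM2 (36.3%) and OGN (33.3% and 38.0%) were similarly poor in G and C, and those of FMOD (52.3%) and PRELP (52.7%) lay between. TATAAA, present in 11.5% of all windows, had 1 match in each OGN window and 1 in the FMOD window. CAGAC (45.3% of all windows) was matched in the FMOD, PRELP and OGN windows and CCAAT (34.6%) in those of FMOD and PRELP. TGACTCA (4.95%) and CACGTG (7.26%) were matched in 0 of the 8 member windows. A match is a run of letters and does not show that a factor binds there.

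The labelled cell type was checked on markers before the family was described. All 7 markers of a mesenchymal breast carcinoma line (VIM, FN1, SPARC, CDH2, ZEB1, AXL and CD44) lay above the upper quartile of every array (6.36 to 6.41, log2). Among 7 epithelial markers, CDH1, EPCAM, CLDN4 and KRT19 lay below the median of every array (4.46 to 4.50), while KRT8 and KRT18 lay above the upper quartile of all 6. ESR1 was below the median on 2 of 6 arrays. Leukocyte (4 measured), endothelial (4) and adipocyte (3) markers had 0 members above the upper quartile on all arrays. The endothelial marker VWF lay above the median of every array, and the leukocyte marker CD3E was below it on 1. Pearson correlations over all probe sets ran from 0.978 to 0.981 within groups and from 0.977 to 0.981 between groups, so no array stood apart by this measure.

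Over all 21448 probe sets limma called 0% (0 probe sets) at an adjusted p of 0.05, and 0 of the 10 members were called, while 1399 probe sets (6.52%) had an unadjusted p below 0.05. At an unadjusted limma p below 0.05, BGN and DCN were counted, both lower in EP300 cultures, where 3.07% of all probe sets were counted as lower. Because the family was chosen from this contrast, nothing is read from these shares. The differences of 8 members were below 0 and those of 2 above, and 49.8% of all probe sets were below 0. The median difference of the members was -0.18 on the log2 scale (-0.15 without BGN), beside 0.00098 over all probe sets. The median size of the difference regardless of sign was 0.24 for the members and 0.20 for all probe sets.

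**Figure D1:**
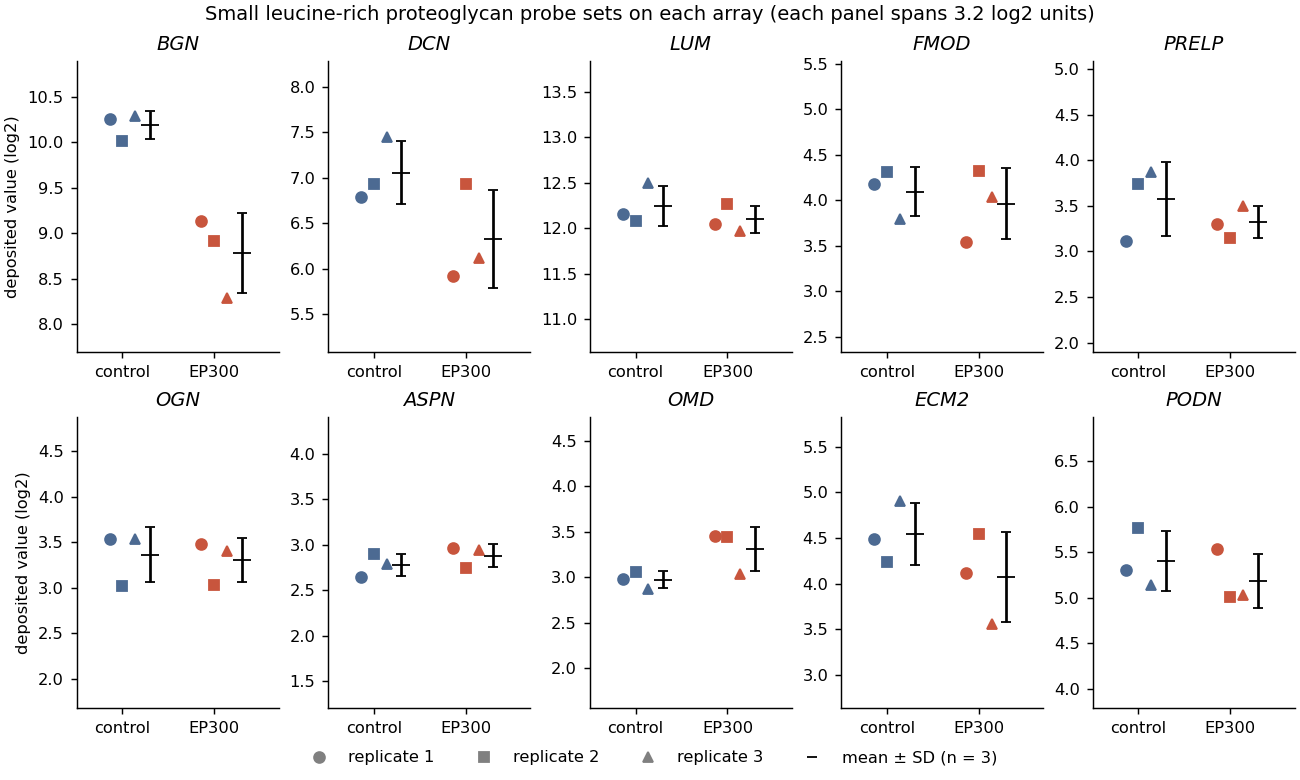
Deposited log2 value of each of the 10 probe sets on each array (y axis), in control and EP300 cultures (x axis), with marker shapes for the replicate number and a black bar for mean ± SD (n = 3). All panels span the same number of log2 units. BGN is the member whose 3 EP300 values (8.29 to 9.13) lie apart from its 3 control values (10.01 to 10.29), and in the other 9 panels the groups overlap.

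Biglycan is a proteoglycan with chondroitin or dermatan sulfate chains. Its probe set read 10.26, 10.01 and 10.29 in control replicates 1 to 3, and 9.13, 8.92 and 8.29 in EP300 replicates 1 to 3 (deposited log2 values). Every EP300 culture was below every control culture, by at least the gap between 9.13 and 10.01, and EP300 replicate 3 was the lowest. The group means were 10.19 ± 0.15 and 8.78 ± 0.44 (SD, n = 3 each), a difference of -1.41 ± 0.26 (SE, 95% interval -1.99 to -0.83), or 2.65-fold lower. Of all 21448 probe sets BGN had the second lowest difference, and 36 (0.168%) differed by less than -1. With 1 array left out the difference ran from -1.58 (without EP300 replicate 1) to -1.16 (without EP300 replicate 3). Groups that did not overlap with EP300 lower were found for 5.91% of all probe sets, and among the members for BGN only.

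Of 5 stromal fibroblast markers, which mesenchymal lines also express, 4 were lower beside BGN and PDGFRB was higher. Their mean level over 5 genes ran from 7.57 to 7.81 in control and from 7.22 to 7.44 in EP300 cultures. THY1, a surface glycoprotein of fibroblasts, differed by -0.75 ± 0.20 (SE), and PDGFRA, a receptor for platelet-derived growth factor, by -0.74 ± 0.29 at a level below the median of every array. COL1A1 differed by -0.29 ± 0.23 with groups that overlapped, and FAP by -0.37 ± 0.24 at a level below the median of every array. PDGFRB, higher by 0.32 ± 0.20, read 5.10, 5.21 and 5.20 in control and 5.46, 5.41 and 5.60 in EP300 cultures. By limma 0 of these 5 passed the adjusted threshold. An unadjusted p below 0.05 was found for 2 (THY1 and PDGFRA), both lower, where 3.07% of all probe sets were counted as lower. The mean of the 7 mesenchymal markers ran from 15.13 to 15.22 in control and from 15.01 to 15.09 in EP300 cultures. This mean includes SPARC, which was at the ceiling of the values (19.93) in control replicates 2 and 3. Of these 7, FN1 differed by -0.33 ± 0.23 and CDH2 by -0.30 ± 0.22, and SPARC, ZEB1 and CD44 were also lower. AXL was higher (0.40 ± 0.21). VIM read the same on every array, so its probe set could show no change in either direction. Of the epithelial markers, the keratin gene KRT18 read 11.42, 10.85 and 11.10 in control and 9.82, 10.15 and 10.08 in EP300 cultures, a difference of -1.11 ± 0.23 with groups that did not overlap. Its partner keratin KRT8 differed by 0.37 ± 0.24. CDH1 differed by 0.71 ± 0.36 at a level below the median of every array, and ESR1 by -0.35 ± 0.30. The mean level of the 7 epithelial markers ran from 5.004 to 5.24 in control and from 4.90 to 5.16 in EP300 cultures, and 4 of the 7 were lower. The part of these markers in the BGN difference was not tested.

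Decorin is the closest relative of biglycan in the family. It binds collagen fibrils and can restrain growth factor receptors such as EGFR and MET. DCN read 6.79, 6.93 and 7.44 in control cultures and 5.92, 6.93 and 6.12 in EP300 cultures (log2). EP300 replicate 2 lay within the control values and the other 2 EP300 cultures below them, so the groups overlapped. The means were 7.05 ± 0.34 and 6.32 ± 0.54 (SD, n = 3 each), and the difference of -0.73 ± 0.31 (SE, 95% interval -1.41 to -0.044) is 1.66-fold lower. The value moved with single arrays and was -1.03 without EP300 replicate 2, -0.53 without EP300 replicate 1 and -0.53 without control replicate 3.

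Asporin (ASPN) and ECM2 complete the members that share most with biglycan and decorin. Asporin is named for a stretch of aspartates near its start and can bind TGF-beta. ASPN read 2.65, 2.90 and 2.79 in control and 2.96, 2.74 and 2.95 in EP300 cultures (log2), below the lower quartile of every array (3.47 to 3.50). Whether this level exceeds background is unknown, and the difference of 0.10 (SE 0.20, 95% interval -0.35 to 0.56) is smaller than its error. With 1 array left out it ran from 0.038 (without control replicate 1) to 0.17 (without EP300 replicate 2). ECM2, a matrix protein with leucine-rich repeats and other domains, read 4.48, 4.24 and 4.91 in control and 4.11, 4.55 and 3.55 in EP300 cultures. EP300 replicate 3 was lowest and EP300 replicate 2 lay among the controls. The difference was -0.47 ± 0.30 (SE, 95% interval -1.13 to 0.19), and it was -0.21 without EP300 replicate 3 and -0.71 without EP300 replicate 2.

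Lumican, fibromodulin, PRELP and osteomodulin form the branch of the family that tends to carry keratan sulfate. Lumican (LUM) regulates fibril assembly, best known from the cornea. LUM read 12.16, 12.08 and 12.50 in control and 12.05, 12.27 and 11.98 in EP300 cultures (log2), above the upper quartile of every array. The groups overlapped throughout. The means were 12.25 ± 0.22 and 12.10 ± 0.15 (SD, n = 3 each), and LUM differed by -0.15 (95% interval -0.64 to 0.34). Without control replicate 3 this was -0.023, and without EP300 replicate 2 it was -0.24. The interval over all 6 arrays contains small changes in either direction.

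Fibromodulin (FMOD), a collagen-binding relative of lumican, read 4.18, 4.31 and 3.80 in control and 3.54, 4.32 and 4.03 in EP300 cultures (log2), below the median of every array. Its highest and its lowest value were both from EP300 cultures. The difference was -0.13 (95% interval -0.72 to 0.46), and without EP300 replicate 1 it turned to 0.081. PRELP, which binds heparan sulfate through a basic N-terminal region, read 3.11, 3.75 and 3.87 in control and 3.30, 3.15 and 3.50 in EP300 cultures. Control replicate 1 was the lowest of the 6, and the difference was -0.26 (95% interval -0.82 to 0.31). It was -0.49 without that array and -0.11 without control replicate 3. OMD encodes osteomodulin, a keratan sulfate proteoglycan of bone. It read 2.98, 3.06 and 2.87 in control and 3.45, 3.44 and 3.03 in EP300 cultures, below the lower quartile of every array. EP300 replicates 1 and 2 lay above all controls and replicate 3 between them. The OMD difference of 0.34 (95% interval -0.15 to 0.82) was the highest of the 10.

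Osteoglycin and podocan belong to branches other than those of biglycan and lumican. OGN, encoding osteoglycin (mimecan), read 3.53, 3.02 and 3.54 in control and 3.48, 3.03 and 3.41 in EP300 cultures (log2). Within each group replicate 2 was the lowest, and the group difference of -0.057 (95% interval -0.59 to 0.48) was the smallest in size among the members. It was above 0 without control replicate 1, without control replicate 3 or without EP300 replicate 2, and reached 0.081 in the last of these. PODN encodes podocan, a collagen-binding protein found in the kidney and vessel wall. It read 5.31, 5.77 and 5.14 in control and 5.53, 5.01 and 5.03 in EP300 cultures, above the median of every array. The PODN difference was -0.22 (95% interval -0.79 to 0.35), and replicate 1 of the EP300 group lay above 2 of the 3 controls. It was -0.035 without control replicate 2 and -0.39 without EP300 replicate 1.

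By level, the family split into 4 members above the median of every array (BGN, DCN, LUM and PODN), 5 below the median of every array (FMOD, PRELP, OGN, ASPN and OMD), and ECM2, which was below the median on 4 of 6 arrays. The deposited table holds no detection calls, so for the 5 low members a small difference may be one of background, and no fold is given.

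**Figure D2:**
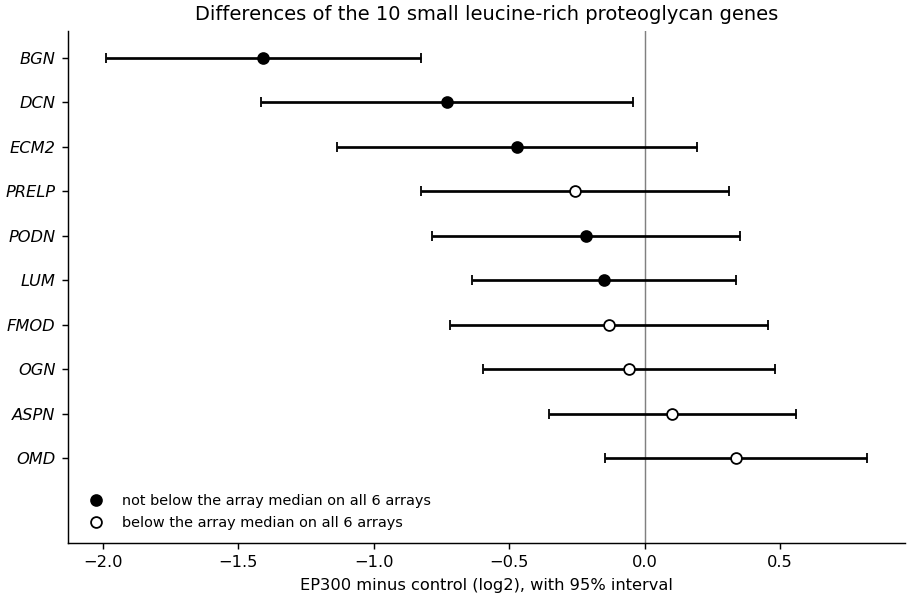
Difference EP300 minus control on the log2 scale (x axis) for each member (y axis), with limma's 95% interval. Open circles are members below the array median on all 6 arrays. The intervals of BGN (-1.99 to -0.83) and DCN (-1.41 to -0.044) lie below 0 without adjustment for the number of probe sets, and the other 8 contain 0.

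Most members sit in gene clusters, and the neighbouring members of chromosome 9 had differences of both signs. On chromosome 12, LUM (-0.15) and DCN (-0.73) are adjacent. Their nearest measured neighbours were KERA, a corneal member of the same family, at 0.31 ± 0.27 (SE), and PLEKHG7, at 0.15 ± 0.21. Both of these were below the array median on all arrays. On chromosome 9 the order is OGN (-0.057), OMD (0.34), ASPN (0.10) and ECM2 (-0.47), between NOL8 (-0.23 ± 0.35) and IPPK, an inositol phosphate kinase gene (-0.56 ± 0.23). IPPK read 5.03, 5.25 and 5.40 in control and 4.31, 4.84 and 4.85 in EP300 cultures, and its groups did not overlap. RefSeq places all 4 of the chromosome 9 members inside the span of CENPP, which was not analysed here.

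On chromosome 1, FMOD (-0.13) and PRELP (-0.26) lie between CHIT1 (-0.16 ± 0.21, SE) and OPTC, which encodes the family member opticin. OPTC read 4.05, 4.45 and 3.94 in control and 3.83, 3.66 and 3.74 in EP300 cultures, with every EP300 value below every control value. Its difference was -0.40 ± 0.22, and it was below the median of every array. PODN, elsewhere on chromosome 1, lies between ECHDC2 (0.20 ± 0.22) and SLC1A7 (0.10 ± 0.26). BGN on chromosome X lies between ZFP92 (-0.17 ± 0.30) and ATP2B3 (-0.44 ± 0.26), both of which were below the median of every array. The start of BGN overlaps HAUS7 in RefSeq, which was not analysed here. By limma 0 of these neighbours passed the adjusted threshold, and IPPK was the 1 with an unadjusted p below 0.05. Of all probe sets 6.52% had such a p. Groups that did not overlap with EP300 lower, as in IPPK and OPTC, were found for 5.91% of all probe sets.

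**Figure D3:**
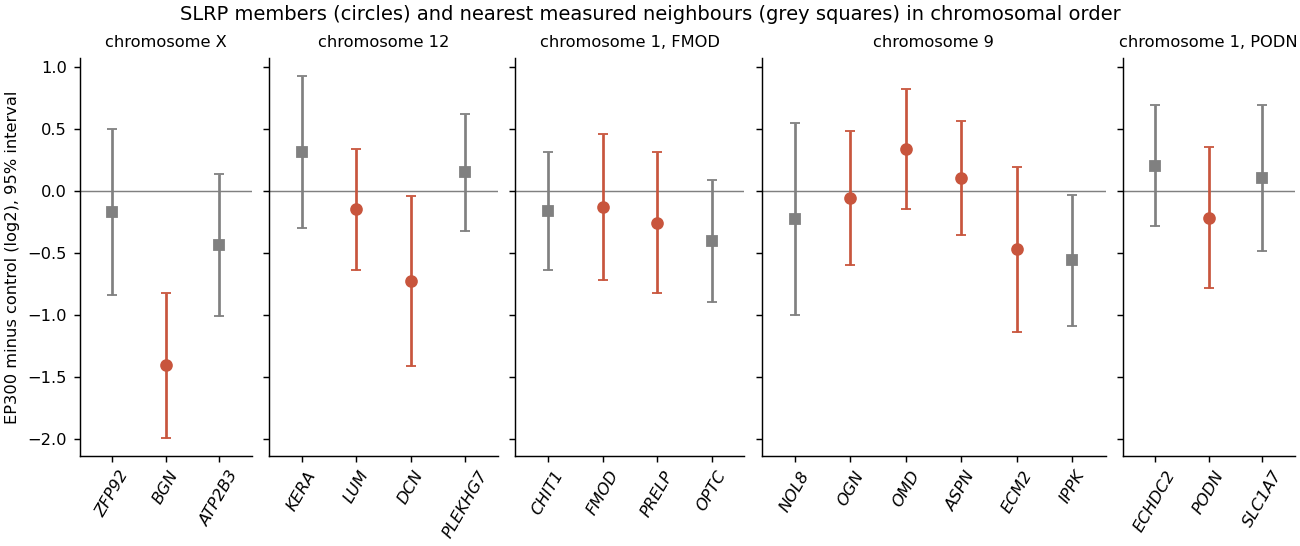
Difference EP300 minus control (y axis, log2, with 95% interval) for the members (red circles) and the nearest measured protein-coding genes (grey squares), in the chromosomal order of RefSeq. Within chromosome 9 the members run from -0.47 (ECM2) to 0.34 (OMD), and the neighbours of BGN lie at -0.17 and -0.44.

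The profile of BGN over the 6 arrays was compared with that of every other named probe set, each centred on its own mean. The 5 closest by root mean square difference were MXI1 (0.156 log2 units), SCD (0.208), FOSB (0.255), SMG8 (0.259) and SERPINB1 (0.266). MXI1 encodes a MAX partner that opposes MYC, SCD a fatty acid desaturase, FOSB an AP-1 subunit, SMG8 a factor of nonsense-mediated decay and SERPINB1 an inhibitor of neutrophil proteases. In all 5 the EP300 values lay below the control values, as in BGN, and their differences ran from -1.37 (MXI1) to -0.97 (FOSB). SMG8 was below the lower quartile on 3 arrays. The measure includes the difference between the groups, so it is no separate result. Of the other members ECM2 was closest to BGN (0.521), with 2.36% of named probe sets closer, followed by DCN (0.542), with 3.26% closer. LUM stood at 0.673 and OMD, the farthest, at 0.891.

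**Figure D4:**
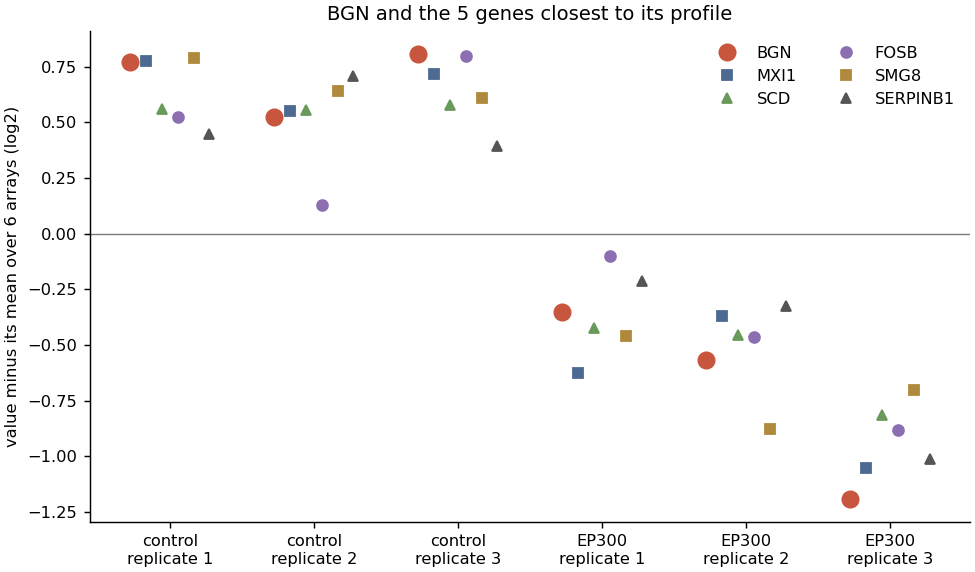
Log2 value minus its mean over the 6 arrays (y axis) for BGN and the 5 genes closest to it, on each array (x axis). All 6 genes are above their mean in the 3 control cultures and below it in the 3 EP300 cultures.

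Related genes were read from 7 lists. The lists were drawn up with earlier results of these data known, 0 of their members passed limma's adjusted threshold in either direction, and counts at an unadjusted p below 0.05 are given beside the 6.52% of all probe sets counted so. The other 8 genes of the family (KERA, EPYC, OPTC, CHAD, CHADL, NYX, TSKU and PODNL1) had 5 lower and 3 higher (4 and 4 after median centring), a median of -0.092 and 0 below an unadjusted p of 0.05. TSKU, which encodes the secreted protein tsukushi, was above the upper quartile of every array and differed by 0.084 ± 0.21 (SE). CHAD, encoding the cartilage protein chondroadherin, differed by -0.26 ± 0.26 and EPYC, encoding epiphycan, by 0.11 ± 0.22. CHAD was below the array median on 5 of 6 arrays and EPYC on all 6.

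Enzymes that build the linker and the chondroitin or dermatan sulfate chains were lower in 12 and higher in 10 of 22 measured, with a median of -0.063 and 1 below an unadjusted p of 0.05. That gene was CHST14, the sulfotransferase of dermatan sulfate. It read 5.89, 5.94 and 6.24 in control and 5.48, 5.02 and 5.46 in EP300 cultures, a difference of -0.70 ± 0.23 (SE), with groups that did not overlap. B4GALT7, which adds a galactose of the linker, differed by -0.38 ± 0.20. CSGALNACT2, which starts the chondroitin chain, differed by 0.58 ± 0.27, and the uronyl sulfotransferase UST by 0.62 ± 0.36.

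Enzymes of keratan sulfate, the chain of the lumican branch, were lower in 5 and higher in 5 of 10, with a median of 0.11 and 0 below an unadjusted p of 0.05. The galactosyltransferase B4GALT1 differed by 0.24 ± 0.20 (SE) and the sulfotransferase CHST1 by 0.31 ± 0.23. CHST4 (-0.43 ± 0.40) and B3GNT7 (-0.12 ± 0.21) were below the array median on all 6 arrays.

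Collagens of the fibrils and of type VI, to which the family binds, were lower in 8 and higher in 7 of 15, with a median of -0.074. The 2 below an unadjusted p of 0.05 were COL5A1 and COL1A2, both lower. COL5A1, a chain of the type V collagen that nucleates fibrils, read 11.78, 11.66 and 11.83 in control and 10.60, 11.24 and 11.09 in EP300 cultures, a difference of -0.78 ± 0.23 (SE). COL1A2, a chain of type I collagen, differed by -0.49 ± 0.22. In the other direction COL6A3, a chain of type VI collagen, differed by 0.28 ± 0.21 and COL11A2 by 0.42 ± 0.32, the latter on probe values below the array median on 5 of 6 arrays.

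Receptors and signalling partners were lower in 14 and higher in 7 of 21, with a median of -0.12. Those below an unadjusted p of 0.05 were TLR2 and LRP6, both lower. TLR2, a receptor of soluble biglycan, read 6.62, 6.22 and 6.52 in control and 6.12, 5.38 and 6.04 in EP300 cultures, which did not overlap, and differed by -0.60 ± 0.26 (SE). LRP6, a co-receptor of Wnt proteins, differed by -0.66 ± 0.29. CD14 (0.24 ± 0.22) and NLRP3 (0.31 ± 0.34) were below the array median on all 6 arrays.

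The list of proteases that process or degrade these proteins had 4 lower and 8 higher of 12, with a median of 0.11. After quantile normalization 5 were lower and 7 higher. The list includes PCOLCE (0.074 ± 0.21, SE), which encodes a protease enhancer and not a protease. MMP2, the gelatinase A gene, was the 1 gene below an unadjusted p of 0.05. It read 10.29, 9.68 and 9.88 in control and 11.03, 10.67 and 10.66 in EP300 cultures. The MMP2 difference was 0.84 ± 0.24 (SE), or 1.79-fold higher. GZMB, encoding the serine protease granzyme B, differed by 0.36 ± 0.21. In the other direction the difference was -0.36 ± 0.30 for the collagenase gene MMP13 and -0.23 ± 0.21 for TLL2, a relative of BMP1, and both were below the array median on all 6 arrays.

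Other proteoglycan core proteins were lower in 12 and higher in 14 of 26, with a median of 0.038. The 2 below an unadjusted p of 0.05 were ESM1 and HSPG2, both lower. ESM1, encoding the dermatan sulfate proteoglycan endocan, read 5.83, 5.40 and 5.71 in control and 4.97, 4.78 and 4.53 in EP300 cultures. Its groups did not overlap and differed by -0.89 ± 0.23 (SE). HSPG2, encoding the basement membrane proteoglycan perlecan, read 5.72, 5.84 and 5.91 in control and 4.91, 5.44 and 4.87 in EP300 cultures, a difference of -0.75 ± 0.23. Serglycin (SRGN) differed by 0.27 ± 0.21 and SPOCK3, below the array median on all 6 arrays, by 0.38 ± 0.28.

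**Figure D5:**
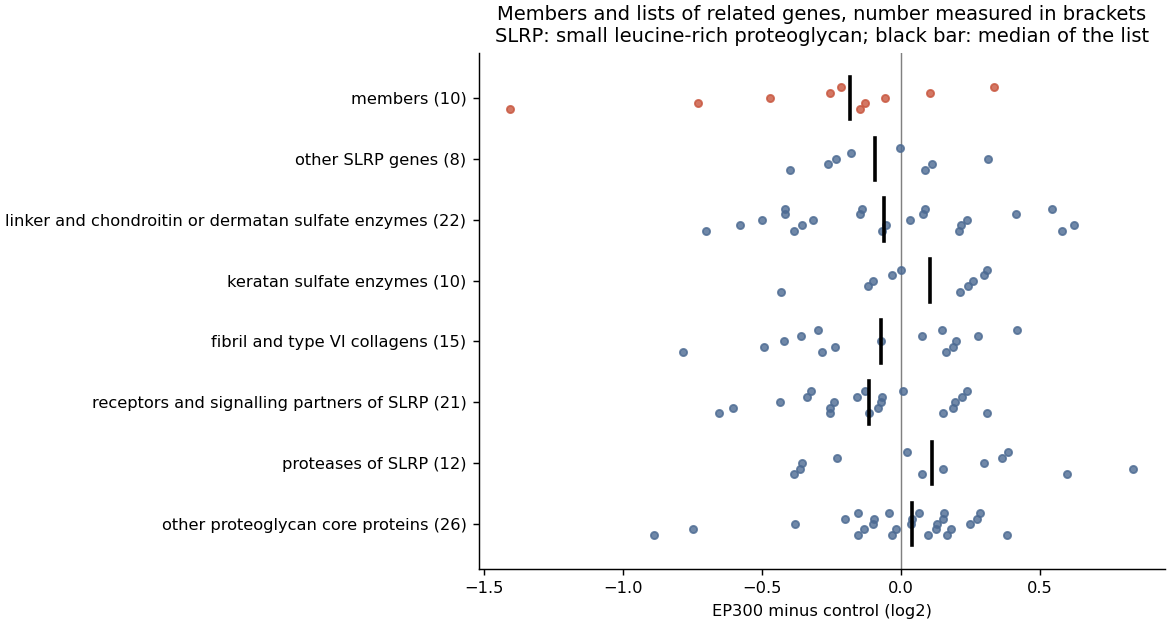
Difference EP300 minus control (x axis, log2) of every measured gene in the 10 members (red) and in the 7 lists of related genes (blue), with the number measured in brackets and a black bar at each median. BGN, at -1.41, lies below every other gene plotted, and the list medians lie between -0.12 and 0.11, beside -0.18 for the members.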

How the data were processed

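Total RNA of 6 cultures (Qiagen RNeasy) was labelled by the Affymetrix WT PLUS method, per the labels' protocols, and each culture had its own array. The deposited values are read as log2 values, because their range fits that scale and no label names one. Partek 6.6 was used, per the submitters' processing notes. How background, normalization and summarisation were handled is not given in the sources used here. No member was constant or at the ceiling of the values.

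Probe sets were named from the platform annotation (3739 had no symbol), and all 10 member identifiers were found in RefSeq GRCh38.p14. The array annotation's build is not stated, so RefSeq served for names, gene order and promoters.

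The difference EP300 minus control came from limma 3.58.1 (lmFit, eBayes; R 4.3.3), with no filter, covariate or block, Benjamini-Hochberg adjustment over 21448 probe sets and a threshold of 0.05. The fit was tested on simulated data. Members, lists, tests and alternatives were chosen with earlier results of these data known. Named genes are all members, the nearest measured neighbours and the 5 profiles closest to BGN. From each list the 2 genes with the smallest p in each direction are named. TSKU, COL1A1, FAP, VWF and PCOLCE were named after their values were seen. Alternatives were quantile normalization, median centring, a filter on level, a variance trend, 1 probe set per gene, no constant probe sets, a replicate block and each array left out. The number of arrays limits the precision.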

Additional observations from a re-analysis of the deposited data

How the results depend on the processing

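With a variance trend and robust estimation limma called 4 probe sets in place of 0, none of them a member, and in the other 12 settings it called 0. No member was called in any of the 13 settings. BGN, DCN, LUM, PRELP, ECM2 and PODN stayed below 0 and ASPN and OMD above 0 in every setting in which they were fitted, BGN between -1.58 and -1.16. Among probe sets above the median level 4 members were left (BGN, DCN, LUM and PODN), and their median difference was -0.47 against -0.18 for all 10, because the low members drop out. With 1 array left out the median ran from -0.23 to -0.15, FMOD from -0.31 to 0.081 and OGN from -0.23 to 0.081. Same-numbered arrays shared no visible deviation from their group means: the correlations were -0.00153, -0.00528 and -0.00893. Of the 3 control arrays 0 correlated best with their own number. Whether same-numbered cultures were handled together is not given. With the replicate block BGN had the same difference of -1.41 with an SE of 0.27, and 0 probe sets were called.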

Other observations

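The arrays differed in which members they ranked high. Control replicate 3 was the highest control array for 6 of the 10 members (BGN, DCN, LUM, PRELP, OGN and ECM2), and control replicate 1 for 0. Among the EP300 arrays, replicate 1 was the highest for 5 members (BGN, OGN, ASPN, OMD and PODN) and replicate 2 for 4 (DCN, LUM, FMOD and ECM2). Replicate 2 was the lowest for PRELP, OGN, ASPN and PODN, and replicate 3 for BGN, LUM, OMD and ECM2. No single EP300 array was the lowest for more than 4 members.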
